A study of Mus musculus with 5 samples.

Results

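The small leucine-rich proteoglycans are secreted proteins of the extracellular matrix. The 10 genes described here, Dcn, Lum, Bgn, Fmod, Ogn, Omd, Prelp, Aspn, Podn and Kera, were chosen by a given list of family members and not by their values, out of 27729 genes in the deposited files. All 10 genes were found by symbol. RNA was sequenced in mouse embryonic fibroblasts (MEFs) of the ICR strain, connective tissue cells taken from embryos after the head and inner organs had been removed, before the medium was changed (day 0) and 2, 5, 10 and 14 days later. The day 0 cells had grown in DMEM with serum. The other cells had then received a defined medium, DMEM/F12 with N2 supplement, bFGF, LIF, vitamin C and 2-mercaptoethanol, which turns MEFs into neuron-like cells and which the study calls 5C and the labels call 6C. The last library is labelled day 14, whereas the treatment text of the labels names day 15. Serum was withdrawn together with the change of medium, so the effects of both cannot be told apart. There was 1 library per time point. No difference between days therefore has a replicate check, no test between days was possible, and every interval given is an exact Clopper-Pearson 95% interval that covers counting error only.

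Small leucine-rich proteoglycans share a core of leucine-rich repeats, with which many of them bind collagen fibrils and set the width and spacing of the fibrils. Many carry chondroitin, dermatan or keratan sulfate chains, and several hold growth factors such as TGFβ in the matrix or bind receptors on the cell surface. Fibroblasts, tendon cells, cartilage, bone and the corneal stroma are known for making them. The family is divided into classes by sequence. Of the genes described, Dcn, Bgn and Aspn belong to class I, Lum, Fmod, Prelp, Kera and Omd to class II, Ogn to class III, and Podn to class V.

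The family's genes moved apart during the conversion. Dcn (decorin), Lum (lumican) and Podn (podocan) rose at every later time point, and Prelp (prolargin) first fell and then rose. Fmod (fibromodulin) and Ogn (osteoglycin) fell at every later time point, and Bgn (biglycan) fell on days 10 and 14, on the scale of normalized counts. Bgn held 96.38% of the family's transcripts, measured per 1000000 (TPM), on day 0 and 47.58% on day 14. On the same scale Dcn went from 0.7393% to 31.85% of the family and Lum from 0.1487% to 14.36%.

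Levels are compared between genes in TPM, which are divided by gene length, and between days in normalized counts, which are expected counts divided by edgeR's TMM library sizes. A change is the log2 ratio of normalized counts to day 0 with a pseudocount of 1, and a gene is said to have risen or fallen where it passed 2-fold and its interval left out 0. Depth ranged from 2253748 expected counts (day 2) to 3890334 (day 0), so that the 3 counts used as the limit of detection stood for 0.7711 to 1.331 per 1000000 counts. The family held 0.3178% to 0.3786% of all counts in each library. In the day 2 library, the shallowest, Gm42418 alone took 4.789% of the counts. All 11 fibroblast markers had counts in every library, and their summed TPM were 17280, 14940, 16460, 22750 and 27430 from day 0 to day 14, while the median change of these markers in normalized counts was −0.52 on day 14. In these bulk libraries fewer cells of a type and less RNA per cell cannot be told apart.

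Most of the genes lie in groups on the chromosomes (GENCODE M21, GRCm38). Dcn (chr10:97479609-97518143), Lum (chr10:97565128-97572703) and Kera (chr10:97606879-97613692), all on the forward strand, were separated by 46.98 kb and 34.17 kb. Aspn (chr13:49544443-49567565), Omd (chr13:49582462-49592822) and Ogn (chr13:49608046-49624501), also on the forward strand, were separated by 14.9 kb and 15.22 kb. Prelp (chr1:133910304-133921414) on the reverse strand and Fmod (chr1:134037254-134048277) on the forward strand lay 115.84 kb apart and are transcribed away from each other. Podn (chr4:108014791-108096445, reverse strand) and Bgn (chrX:73483602-73495933, forward strand) lay apart from the other members. Upstream sequences from RefSeq (GRCm38.p6) were found for 8 of the 10 genes, all but Dcn and Lum. Those of the chromosome 1 pair, whose members parted after day 2, and of the outer chromosome 13 genes, whose normalized counts shared their low point on day 5, are shown 5′ to 3′ on the strand of the gene. Capitals mark matches, on either strand, to the 4 motifs searched, TATAAA for the TATA box, CCAAT for the box of that name, TGANTCA for AP-1 and GGAATG for TEAD. They cover 250 bases before the start in RefSeq, chr1:134037004-134037253 for Fmod, chr13:49544193-49544442 for Aspn and chr13:49607765-49608014 for Ogn. For Prelp they cover the 237 bases before the start in GENCODE, which lies upstream of the RefSeq start, chr1:133921415-133921651.
Fmod: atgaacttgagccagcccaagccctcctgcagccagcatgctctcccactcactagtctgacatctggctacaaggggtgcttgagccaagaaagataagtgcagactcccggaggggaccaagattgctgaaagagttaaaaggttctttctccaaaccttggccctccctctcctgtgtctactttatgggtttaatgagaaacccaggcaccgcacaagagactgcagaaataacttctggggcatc
Prelp: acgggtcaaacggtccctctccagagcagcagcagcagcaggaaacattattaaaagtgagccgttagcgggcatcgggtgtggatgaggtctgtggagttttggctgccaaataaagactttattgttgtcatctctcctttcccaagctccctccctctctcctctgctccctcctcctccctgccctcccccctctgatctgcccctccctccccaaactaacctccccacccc
Aspn: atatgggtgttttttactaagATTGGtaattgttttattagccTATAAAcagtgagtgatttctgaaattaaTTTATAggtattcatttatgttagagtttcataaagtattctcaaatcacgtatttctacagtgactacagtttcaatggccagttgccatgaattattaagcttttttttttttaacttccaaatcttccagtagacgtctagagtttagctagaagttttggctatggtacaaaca
Ogn: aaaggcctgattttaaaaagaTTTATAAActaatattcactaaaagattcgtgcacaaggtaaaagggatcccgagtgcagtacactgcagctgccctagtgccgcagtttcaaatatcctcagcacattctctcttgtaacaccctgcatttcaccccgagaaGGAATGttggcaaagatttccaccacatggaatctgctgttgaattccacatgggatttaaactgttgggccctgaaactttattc

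The sequences of Fmod and Prelp held none of the 4 motifs. The sequence of Aspn held 2 TATA box matches, which begin 207 and 178 bases before the start, and 1 CCAAT box match at 229 bases, and that of Ogn held 2 overlapping TATA box matches, at 229 and 227 bases, and 1 TEAD match at 86 bases. Among 32851 upstream regions of 250 bases, 12.4% held the TATA box, 33.8% the CCAAT box, 6.75% the AP-1 motif and 12.6% the TEAD motif. The matches describe letters only, and neither binding nor start site use was measured.

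**Figure D1:**
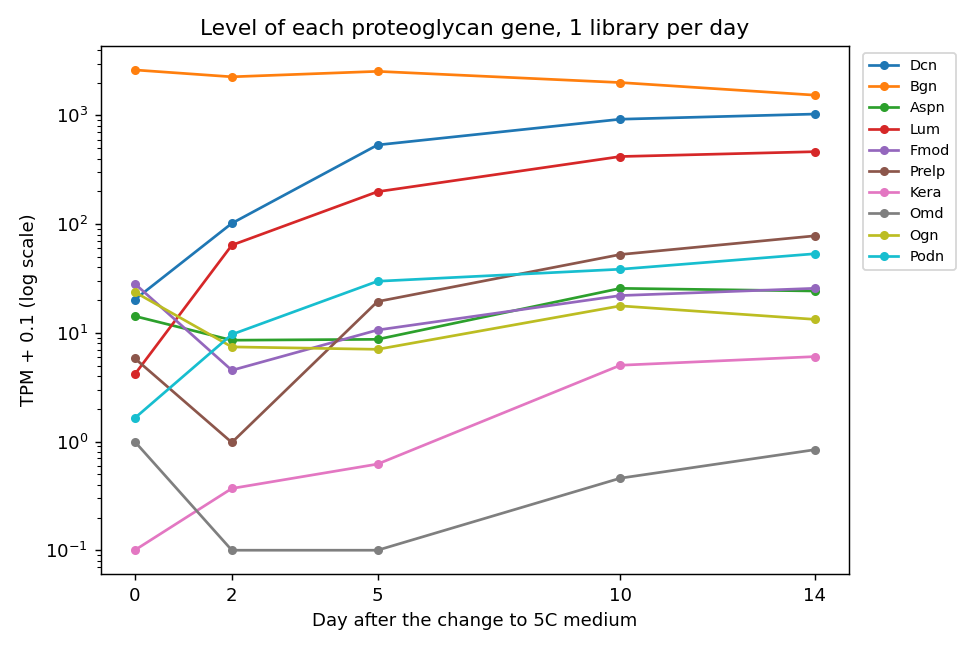
TPM of each of the 10 genes (y axis, TPM plus 0.1 on a log scale) by day (x axis), with 1 library per point and lines joining the libraries of a gene. Bgn stays the highest from 2619.12 to 1536.67, Dcn and Lum climb from 20.09 and 4.04 to 1028.85 and 463.66, and Kera and Omd stay lowest from day 2 on.

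Decorin, the class I member that carries a single chondroitin or dermatan sulfate chain and binds collagen fibrils, TGFβ and the receptors Egfr and Met, had normalized counts of 101.9, 620.5, 1741, 2191 and 2989 from day 0 through days 2, 5, 10 and 14. Each library was higher than the one before. The log2 change against day 0 was 2.59 (2.28 to 2.94) at day 2 and 4.86 (4.59 to 5.17) at day 14, and most of it lay in the steps up to day 5, since the step from day 5 to day 10 was 0.33 (0.25 to 0.41). By TPM Dcn was number 4702 of 15480 genes above 0 on day 0 and number 117 of 16288 on day 14.

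Biglycan, the closest relative of decorin, also carries chondroitin or dermatan sulfate and, when free of the matrix, is a ligand of Tlr2 and Tlr4. Its normalized counts were 13270, 12490, 8429, 4961 and 4550. It was the family's highest gene in every library, and on this scale its level went down at each step. The log2 change was −0.09 (−0.13 to −0.05) at day 2, −0.65 (−0.69 to −0.62) at day 5, −1.42 (−1.46 to −1.38) at day 10 and −1.54 (−1.59 to −1.50) at day 14. In deposited TPM, a scale on which the median of all kept genes shifted by 1.09 on day 10 and 0.78 on day 14 (log2), the Bgn changes were −0.39 and −0.77, less than 2-fold, and −1.48 and −1.55 relative to that median. With total counts as library size the day 10 change was −0.95. Among all genes Bgn stayed near the top, at number 50 by TPM on day 0 and 68 on day 14.

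The ratio of Dcn to Bgn in TPM was 0.00767 (0.00626 to 0.00931) at day 0 and then 0.0449, 0.21, 0.46 and 0.67, with an interval of 0.641 to 0.7 on day 14. The intervals of no 2 neighbouring days overlapped. The pair of chondroitin or dermatan sulfate carriers thus went from a great excess of Bgn towards similar levels.

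Asporin, which has a stretch of aspartates in place of the chain attachment site and binds collagen and TGFβ, had normalized counts of 94.02, 66.94, 35, 75.69 and 87.6. The day 5 library was the lowest. It fell on day 5, by 1.40 on the log2 scale (−2 to −0.88), and then came back by 1.09 (0.58 to 1.68) from day 5 to day 10. In TPM its day 5 change was −0.66, less than 2-fold, and day 2 was the lowest library, with 8.45 against 8.61. On days 10 and 14 its intervals against day 0, −0.73 to 0.10 and −0.52 to 0.32, held 0, and its sign there depended on the scale, since the changes were −0.31 and −0.10 in normalized counts, 0.16 and 0.25 with total counts as library size, and 0.81 and 0.73 in TPM.

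Lumican, a keratan sulfate proteoglycan needed for the orderly collagen fibrils of cornea and skin, had expected counts of 24, 249, 816, 1535 and 1663, or normalized counts of 23.75, 450.5, 714, 1096 and 1486. As with Dcn, every library was higher than the one before. The log2 change was 4.19 (3.64 to 4.91) at day 2 and 5.91 (5.39 to 6.61) at day 14, the largest rise of the 9 counted genes on each day, and on day 14 it was number 114 by rise among 13346 kept genes. Dcn stood 4.97 times as high as Lum in TPM on day 0 (3.16 to 8.11), 1.59 times on day 2 (1.35 to 1.88), 2.69 times on day 5 (2.48 to 2.92) and 2.22 times on day 14 (2.09 to 2.35). The day 10 ratio of 2.2 (2.07 to 2.35) overlapped that of day 14, and the intervals of days 0 and 2 did not overlap, since Lum rose more steeply than Dcn up to day 2. From day 2 to day 5 the step of Dcn was the larger, at 1.49 (1.32 to 1.66) against 0.66 (0.46 to 0.88) for Lum.

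Fibromodulin, which binds the same site on collagen as lumican and is abundant in tendon, had normalized counts of 250.4, 47.04, 56.88, 86.41 and 123.4. It was highest on day 0 and lowest on day 2, and came partly back. The log2 change was −2.39 (−3.05 to −1.83) at day 2 and −1.02 (−1.33 to −0.72) at day 14, where the interval reached across the 2-fold mark and the change was −0.66 with total counts as library size and −0.99 with a pseudocount of 5. In TPM the change was −2.43 on day 2 and only −0.14 on day 14, which is −0.92 relative to the median of all kept genes.

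Prolargin (Prelp), which lacks sulfate chains and binds heparan sulfate and collagen at basement membranes, had expected counts of 54, 6, 104, 303 and 400 and normalized counts of 53.44, 10.85, 91, 216.4 and 357.5. Its lowest library was day 2 and its highest day 14. The log2 change was −2.20 (−3.81 to −1.08) at day 2, which rests on 6 counts, 0.76 (0.28 to 1.27) at day 5, 2.00 (1.60 to 2.46) at day 10 and 2.72 (2.33 to 3.18) at day 14. The step from day 2 to day 5 was 2.96 (1.90 to 4.55), and with it Prelp passed its neighbour Fmod. The TPM ratio of Prelp to Fmod was 0.203 (0.148 to 0.273) at day 0, 0.199 (0.067 to 0.495) at day 2, 1.84 (1.33 to 2.54) at day 5 and 3.05 (2.51 to 3.73) at day 14.

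Keratocan (Kera), a keratan sulfate proteoglycan best known from the cornea, had expected counts of 0, 1, 2, 17 and 20. Against the limit of 3 counts in the day 0 library it was 4.089-fold higher on day 10 and 6.021-fold higher on day 14. These folds leave out the counting error of its 17 and 20 counts. Its counting intervals against day 0 began at a log2 change of 1.57 on day 10 and 2.16 on day 14. No fold is given for days 2 and 5, where Kera was under the limit of detection. Osteomodulin (Omd), a class II member of bone, had 4, 0, 0, 1 and 2 expected counts. A change of Omd was not detectable at this depth, and it did not reach the 10 counts in any library that the counts of changed genes ask for.

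Osteoglycin (Ogn, also mimecan), the class III member, was first described in bone and is also found in cornea and vessel walls. Its normalized counts were 170.2, 63.32, 30.63, 56.41 and 51.84. Day 0 was the highest library and day 5 the lowest. The log2 change was −1.41 (−1.99 to −0.90) at day 2, −2.44 (−3.04 to −1.94) at day 5, −1.58 (−2 to −1.20) at day 10 and −1.70 (−2.17 to −1.28) at day 14. In TPM the changes on days 10 and 14 were −0.41 and −0.79, less than 2-fold, and −1.50 and −1.58 relative to the median of all kept genes. Asporin, at the other end of the same group on chromosome 13, stood at 0.599 (0.461 to 0.774) of Ogn in TPM on day 0 and at 1.83 (1.31 to 2.58) at day 14.

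Podocan (Podn), the class V member, was found in the kidney glomerulus and also binds collagen. Its expected counts were 13, 52, 160, 170 and 238, or normalized counts of 12.87, 94.07, 140, 121.4 and 212.7. The log2 change was 2.78 (1.97 to 3.87) at day 2, 3.35 (2.63 to 4.38) at day 5, 3.14 (2.43 to 4.18) at day 10 and 3.95 (3.25 to 4.98) at day 14. It rose early and levelled off between days 5 and 10, where the step of −0.20 (−0.53 to 0.11) held 0, and then gained another 0.80 (0.52 to 1.10) by day 14.

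**Figure D2:**
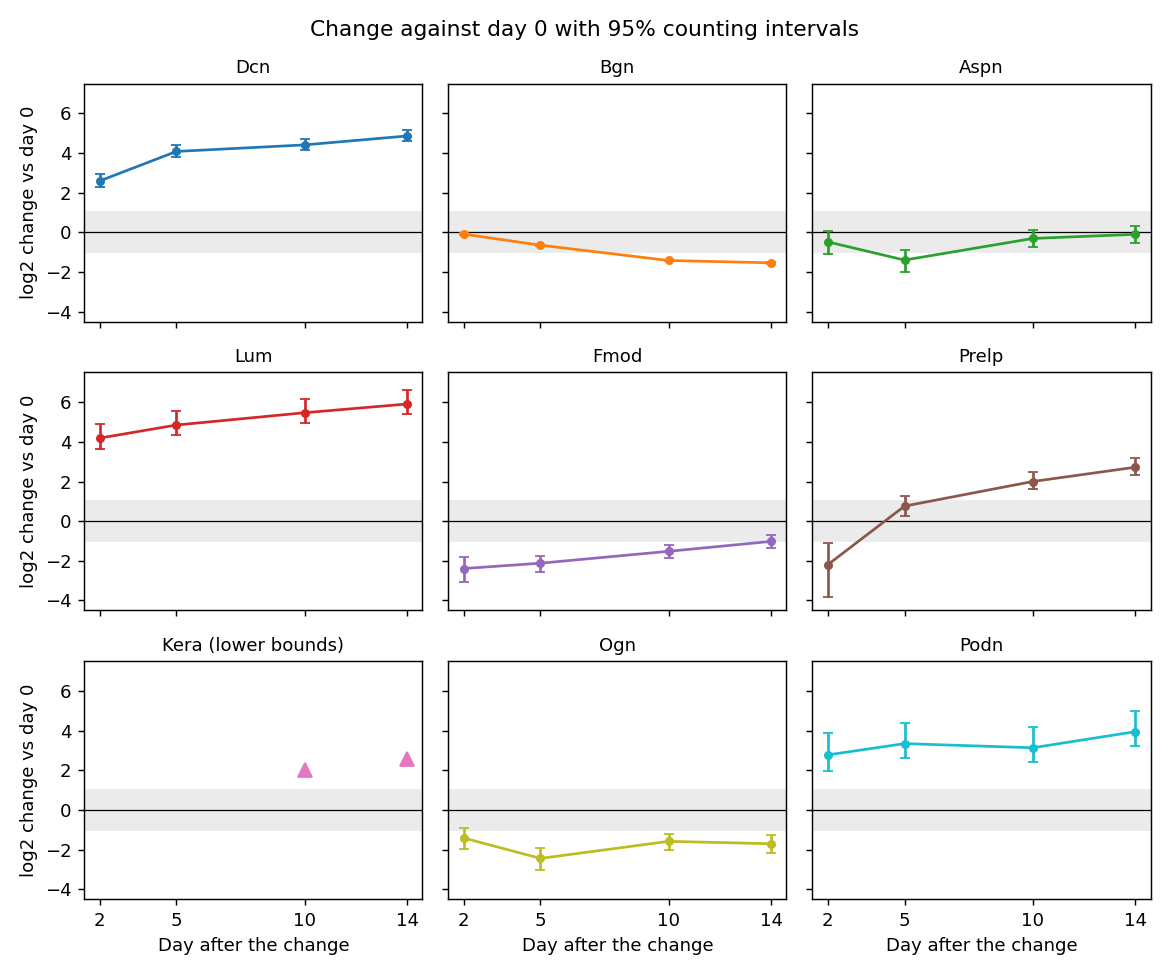
Log2 change of each gene against day 0 (y axis) by day (x axis). Bars are exact 95% counting intervals, and the grey band marks changes under 2-fold. Triangles, titled lower bounds in the panel, show Kera against the limit of 3 counts on day 0, without its counting error. Omd is left out. Dcn, Lum and Podn lie above the band on every day and Fmod and Ogn below it, while Prelp crosses it from −2.20 on day 2 to 2.72 on day 14.

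Of the 10 genes, 9 had 10 or more expected counts in a library and were counted, of which Kera passed only through the days on which it was high. On day 2, 4 of the 9 were over 2-fold above day 0 (Dcn, Lum, Podn and Kera, the last with 1 count), beside 15.2% of all 13346 kept genes, and 3 were below (Fmod, Prelp and Ogn), beside 13.1%. On day 5, 4 were above (the same genes, Kera with 2 counts), beside 20.2%, and 3 below (Aspn, Fmod and Ogn), beside 13.6%. On day 10, 5 were above (Dcn, Lum, Podn, Prelp and Kera), beside 28.7%, and 3 below (Bgn, Fmod and Ogn), beside 22.3%. On day 14 the same 5 were above, beside 24.5%, and the same 3 below, beside 19.9%. Without Kera the numbers above day 0 were 3, 3, 4 and 4. The genes thus lay mostly outside the 2-fold range, on both sides of it.

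The median change of the 9 genes was −0.09, 0.76, 2.00 and 2.72 on days 2, 5, 10 and 14, against −0.03, 0.05, 0.14 and 0.07 over all kept genes. With Kera left out on days 2 and 5 and set against the limit of detection on days 10 and 14, the medians were −0.29, 0.05, 2.00 and 2.59. The scale mattered for the genes with smaller changes. In TPM, 7.9% and 14% of all kept genes were over 2-fold above and below day 0 on day 2, 32% and 3.98% on day 5, 52.9% and 6.77% on day 10, and 41.6% and 6.96% on day 14. On that scale 3, 4, 5 and 5 of the 9 genes were over 2-fold above day 0 on days 2, 5, 10 and 14, and 3, 2, 0 and 0 were below. The 5 of 9 above on day 10 are close to the 52.9% of all kept genes.

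**Figure D3:**
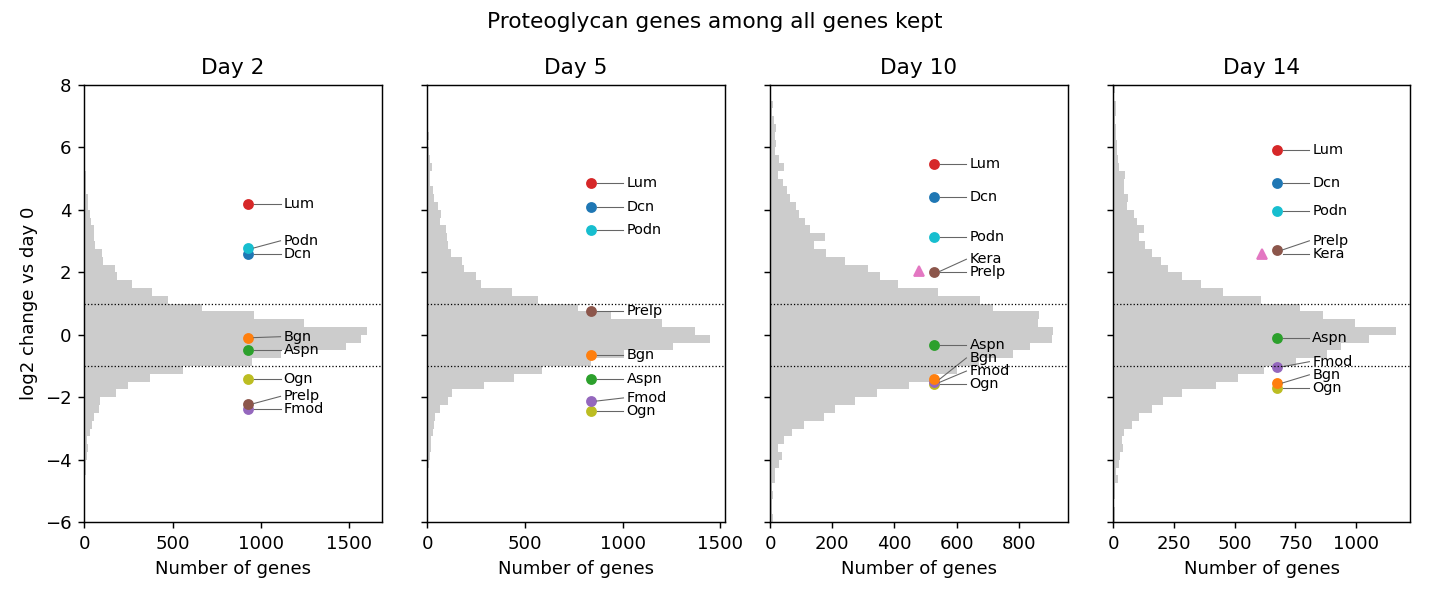
Number of kept genes (grey bars, x axis) by log2 change against day 0 (y axis) on each later day, with the proteoglycan genes as points at their own change and their names beside them; dotted lines mark 2-fold, the triangle is Kera at its lower bound, and the sideways place of a point has no meaning. Lum and Dcn lie far above the bulk of the genes on every day, at 5.91 and 4.86 on day 14, and Bgn, Fmod and Ogn lie below the lower line on days 10 and 14.

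The order of the genes by TPM changed after day 0. On day 0 Bgn (2619.12 TPM) stood 92.7-fold (81.9 to 105) above the next gene, Fmod (28.25), which did not differ from Ogn (23.62) beyond counting error, nor did Ogn from Dcn (20.09). Aspn (14.14), Prelp (5.73), Lum (4.04), Podn (1.54) and Omd (0.9) followed, with Prelp and Lum, and Podn and Omd, not apart beyond counting error, and Kera was listed at 0. From day 2 on the 3 highest were Bgn, Dcn and Lum in that order, each pair of neighbours apart beyond counting error. On day 14 Bgn had 1536.67 TPM, Dcn 1028.85, Lum 463.66, Prelp 77.86, Podn 53.24, Fmod 25.55, Aspn 24.15, Ogn 13.2, Kera 5.94 and Omd 0.74. Among these neighbours only Fmod and Aspn, at a ratio of 1.06 (0.811 to 1.38), did not differ beyond counting error, and Omd was under the limit of detection.

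**Figure D4:**
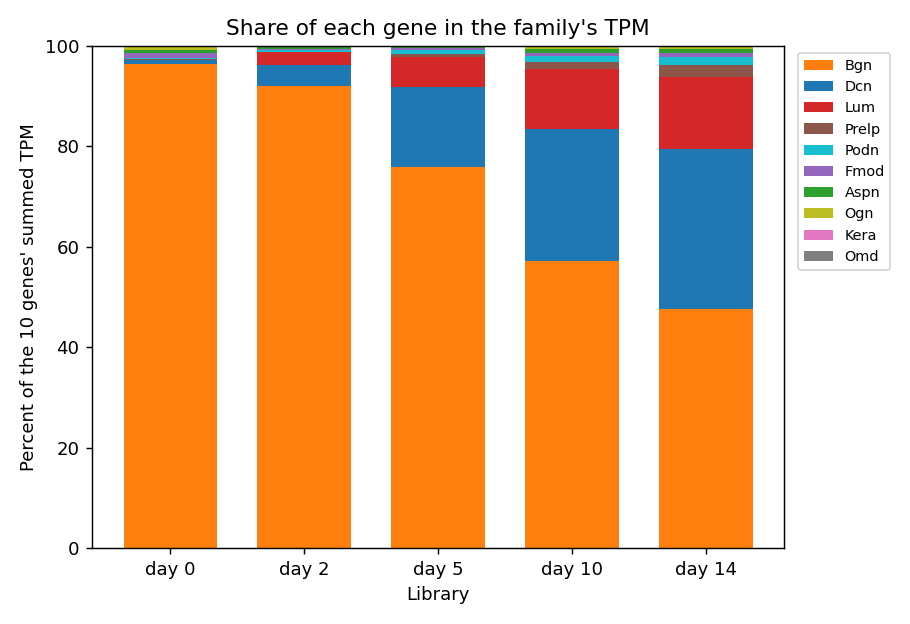
Percent of the summed TPM of the 10 genes (y axis, from 0 to 100) held by each gene in each library (x axis, 1 library per day). Bgn takes 96.38, 92.02, 75.86, 57.17 and 47.58 percent from day 0 to day 14, while Dcn and Lum take most of what it gives up and reach 31.85 and 14.36 percent.

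Summed over the 10 genes, normalized counts were 13980, 13840, 11240, 8817 and 9878, a log2 change of −0.50 (−0.54 to −0.46) at day 14. The sum of TPM went the other way, from 2717 on day 0 to 3230 on day 14, a change of 0.25 on a scale on which the median of all kept genes moved by 0.78. Bgn decided the sum. Without it normalized counts rose from 710.6 to 5328, by 2.90 (2.79 to 3.02) on the log2 scale, and TPM from 98.31 to 1693. Prelp went from 0.2109% to 2.411% of the family's TPM and Podn from 0.05667% to 1.648%.

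By chromosome group, Dcn and Lum on chromosome 10 rose on every later day, and Kera beside them passed the limit of detection on days 10 and 14. The next gene on that side, Epyc, a small leucine-rich proteoglycan of cartilage 30.38 kb past Kera, had 0, 4, 11, 6 and 5 expected counts. On chromosome 13 Aspn and Ogn were never over 2-fold above day 0, and Ecm2, 11.65 kb before Aspn, had 1.12, 1, 4.08, 8.09 and 8.94 expected counts. Prelp and Fmod on chromosome 1 fell together on day 2 and lay on opposite sides of day 0 on days 10 and 14, and Optc, 2.3 kb from Prelp, had 5, 3.01, 2, 2 and 2.48 expected counts. Aspn, Omd and Ogn lie within Cenpp on the opposite strand, but shared at most 7 exon bases with it, and Cenpp had 1 to 13 expected counts. Prelp shared 350 of its 3615 exon bases with the antisense gene Gm15851, which had 0 counts in every library. Podn overlaps Scp2 on the same strand, with 0 shared exon bases, and Scp2 had 220, 240, 423, 590 and 591 expected counts. The library kit does not mark strand, so reads from exon bases shared by genes on opposite strands cannot be told apart.

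For the 3 genes with the most counts, the genes with the nearest profile were those with the smallest Euclidean distance over the 4 log2 changes, searched over the 8265 genes that reached 100 expected counts in a library. For Bgn these were Rbpms (0.15), an RNA-binding protein, Ints11 (0.17), a subunit of the Integrator complex, and Mettl6 (0.22), a tRNA methyltransferase. For Dcn they were Mest (0.43), an imprinted gene, Col18a1 (0.51), the collagen of basement membranes that gives endostatin, and Sfrp4 (0.54), a secreted Wnt antagonist. For Lum they were Kcnh2 (0.67), a potassium channel, Ptgfr (0.74), a prostaglandin receptor, and Angpt1 (0.75), a ligand of the receptor Tek, whose normalized counts on day 0 were 1.979, 0.9896 and 0.9896. Smallest distances among 8265 genes and among the 8 other counted members cannot be compared, because the first pool is far larger. The nearest of these 8 members was Podn for Dcn (1.74), Dcn for Lum (2.31) and Aspn for Bgn (2.01).

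Genes that make, bind or cut these proteoglycans were read from lists, in normalized counts and beside the median of all kept genes, which was 0.07 on day 14. Of 9 other family genes 4 were kept, of which 2 were above and 2 below 2-fold on day 14 (median 0.57). The shares of all kept genes were 24.5% and 19.9%. Tsku, a secreted BMP and Wnt modulator, changed by −1.32 (−1.66 to −1). Of 24 enzymes of chondroitin and dermatan sulfate chains 23 were kept. On day 10, 9 were above and 3 below (median 0.63), beside 28.7% and 22.3% of all kept genes, whose median was 0.14. On day 14, 6 were above and 2 below (median 0.43), beside 24.5% and 19.9% of all kept genes, so the number above was near that share. Among them Csgalnact1, which starts chondroitin chains, rose by 2.41 (1.87 to 3.07), the sulfotransferase Chst15 by 1.97 (1.35 to 2.74), and the chain-extending Chpf2 by 1.62 (1.35 to 1.92). Of 8 keratan sulfate enzymes 5 were kept and none was over 2-fold on day 14 (median 0.10), and the sulfotransferase Chst2 and the galactosyltransferase B4galt1 changed by 0.80 (0.48 to 1.14) and 0.08 (−0.10 to 0.27).

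All 12 collagen chains of fibrils and their surface were kept. On day 2, 3 were above and 4 below 2-fold (median −0.18), beside 15.2% and 13.1% of all kept genes. On day 14, 6 were above and 1 was below (median 1.18), beside 24.5% and 19.9% of all kept genes. Col14a1, which sits on the fibril surface, rose by 5.35 (4.85 to 6.02), the fibrillar Col3a1 by 3.87 (3.79 to 3.95) and Col5a3 by 3.76 (3.56 to 3.98). On day 2 the changes of the same chains were 1.05 (0.27 to 1.89), 1.51 (1.41 to 1.61) and −0.18 (−0.55 to 0.18). Of 14 ligands and receptors that members of the family bind 13 were kept, with 3 above and 4 below on day 14 (median 0.36), beside the same 24.5% and 19.9%. Tgfb3, a growth factor of the TGFβ group that members of the family bind, fell by 2.97 (−3.27 to −2.71), Met, a receptor bound by decorin, rose by 2.89 (2.34 to 3.58), and Igf1r, another, fell by 2.23 (−2.82 to −1.74).

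Of 12 proteases and processing enzymes 10 were kept, with 5 above and 1 below on day 14 (median 1.75), beside 24.5% and 19.9% of all kept genes. The matrix protease Mmp3 (stromelysin) had 17.94 expected counts on day 0 and rose by 7.33 (6.74 to 8.17) by day 2 and by 6.64 (6.05 to 7.47) by day 14. The collagenase Mmp13 rose by 5.69 (4.82 to 7.20) and the aggrecanase Adamts4 by 4.30 (3.21 to 6.51), from 7 and 4 expected counts. These proteases can cut several of the proteoglycans, and protein was not measured.

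Markers of other cell types, summed here in TPM, a scale on which the median of all kept genes shifted by up to 1.09, moved over the same days, and their part in the changes of the proteoglycan genes was not tested. Markers past 2-fold, here and below, were counted in normalized counts. The shares of all kept genes above and below were 15.2% and 13.1% on day 2 and 24.5% and 19.9% on day 14. With the rise of Dcn, Lum, Podn and Prelp, all 9 Schwann and neural crest markers were kept, none was at 0, and their summed TPM went from 27.85 on day 0 and 22.85 on day 2 to 2049 on day 14. The 7 adipocyte markers, all kept, went from 54.9 to 93.13, 471.5, 1631 and 2379, with Adipoq, Plin1 and Cidec at 0 on days 0 and 2. On day 2, 2 of the 7 were over 2-fold above day 0, Fabp4 by 1.24 (0.76 to 1.76) and Lpl by 1.15 (0.73 to 1.59), and 1 was below, and on day 14, 6 were above. The 10 macrophage markers, all kept and with Ptprc at 0 on day 0, went from 60.89 to 470.4 on day 2, 1579 on day 5 and 675.8 on day 14. Lyz2 alone held 30.26 of the day 0 sum, 1252.36 of the day 5 sum and 499.49 of the day 14 sum. On day 14, 7 of the 10 were over 2-fold above day 0, and 1, Itgam, had fallen by 2.94 (−4.40 to −2.06). Csf1r and Aif1 changed by 0.54 (−0.03 to 1.14) and 0.10 (−1.86 to 2.17). With the fall of Bgn, Fmod and Ogn, the summed smooth muscle and pericyte markers went from 10140 to 1272, 560.6, 293 and 145. Of these 8 markers 7 were kept and none was at 0. Acta2 and Tagln held 6362.12 and 3610.49 of the day 0 sum. All 7 kept markers were over 2-fold below day 0 on day 14. Among them Rgs5 went from 7 to 3 expected counts, and its interval (−3.95 to 0.76) held 0. Kcnj8, which was not kept, went from 3 to 8. Most of the fall of the sum came by day 2, when Bgn had changed by −0.09, Fmod by −2.39 and Ogn by −1.41.

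Of the tissues best known for these proteoglycans, the tendon markers (5 of 5 kept, none at 0) summed to 219.6 on day 0, 120.8 on day 2 and 670 on day 14. Egr1, an immediate-early gene of many cell types, held 167.89 of the day 0 sum and 645.19 of the day 14 sum. Scx and Tnmd fell by 2.51 and 2.26 on day 14, after Scx had risen by 1.20 (0.69 to 1.74) on day 2. The other tendon markers, Mkx and Thbs4, changed by 0.79 (−0.31 to 2.11) and 0.17 (−0.85 to 1.22) on day 14. Osteoblast markers (3 of 6 kept, 3 above and 0 below on day 14) went from 12.17 to 91.84, of which Runx2 held 5.59 and 80.46. Dmp1 and Ibsp had 0 and 1 expected counts on day 0 and 41 and 10 on day 14. Bglap, Sp7 and Alpl, which were not kept, had 5.7, 7 and 5 expected counts on day 0 and 0 on day 14. Chondrocyte markers (5 of 7 kept, 1 above and 3 below on day 14) summed to 51.75 on day 0, 17.75 on day 2 and 47.85 on day 14, of which Col2a1 went from 43.33 to 0.36 and Comp from 0.43 to 37.19, with Acan, Matn1 and Matn3 at 0 on days 10 and 14. Neuron markers (5 of 9 kept) summed to 98.87 on day 0 and 71.92 on day 14, with Rbfox3 at 0 in every library. Of the 5, Stmn2 and Map2, which held most of that sum, were over 2-fold below day 0 on day 14, and Syp, Snap25 and Nefl were above it, with 36.4, 7.01 and 5 expected counts. Endothelial markers (2 of 6 kept, Cldn5 at 0 in every library) went from 23.03 to 2.39, skeletal muscle markers (2 of 6 kept, Myf5 at 0 in every library) from 8.25 to 0.52, and epithelial markers (3 of 6 kept) from 109.6 to 7.78. Krt19 alone held 99.93 of the epithelial sum on day 0 and 2.22 on day 14. The 3 kept epithelial markers were over 2-fold below day 0 on day 14, although Krt18 had risen by 3.21 (2.69 to 3.86) on day 2. Epcam, which was not kept, went the other way, with 0, 1, 4, 5 and 8 expected counts. Among the fibroblast markers 2 were over 2-fold above day 0 on day 14 and 4 below, beside 24.5% and 19.9% of all kept genes. Pdgfra, a receptor of fibroblasts, rose by 2.44 while Twist2 fell by 2.71.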

How the data were processed

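RNA of 5 libraries of MEFs, 1 per time point by the labels, was sequenced from TruSeq libraries. The authors deposited expected counts per gene from RSEM, which are not scaled for library size, together with TPM (per gene length, each library summing to 1000000) and FPKM values. The submitters' processing notes name Bowtie, RSEM and mm10, with no versions or annotation. FPKM were not used. The effective length of each gene equalled its length in the files. The paper's methods compare later days with day 0 by fold change.

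Symbols and coordinates came from GENCODE M21 for 27247 of 27729 genes. Expected counts, rounded, gave library sizes by the TMM method of edgeR 4.0.16 (R 4.3.3), with factors of 0.855881, 0.808187, 1.11008, 1.18774 and 1.09648, and normalized counts are scaled to their geometric mean. Changes have a pseudocount of 1. A gene was kept when at least 1 library held 10 expected counts of it, which left 13346. Intervals are exact (Clopper-Pearson, 95%) and use rounded counts. They cover counting error only, reads without molecular identifiers are not independent molecules, and 3 counts served as the limit of detection. The other tools were pandas 2.3.3, scipy 1.17.1, numpy 2.4.6 and matplotlib 3.10.9 under Python 3.11.15, and the computations were tested on simulated data.

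The members, the gene lists and the rules were chosen with earlier results of these data known. Named genes were all members, the 3 genes of each related list with the largest absolute change on day 14 among those with 100 or more expected counts in a library (fewer where fewer reached it), the 3 genes of nearest profile for the 3 members with the most counts, neighbours and overlapping genes, and markers at 0. The marker genes named for their change or their share of a sum were chosen after their values were seen. They were Pdgfra, Twist2, Scx, Tnmd, Mkx, Thbs4, Egr1, Runx2, Dmp1, Ibsp, Col2a1, Comp, Fabp4, Lpl, Stmn2, Map2, Syp, Snap25, Nefl, Lyz2, Itgam, Csf1r, Aif1, Acta2, Tagln, Rgs5, Kcnj8, Krt19, Krt18 and Epcam. Alternatives were DESeq2 size factors (version 1.42.0), total counts, TMM without Gm42418 and Lars2, TPM, changes relative to genes of like length, pseudocounts of 0.5 and 5, a 4-fold threshold, and other filters. TMM without the day 2 library and counts without Kera were added after seeing the data.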

Additional observations from a re-analysis of the deposited data

Results flagged for a closer look

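Prelp moved in opposite directions at the ends of the time course. Its log2 change against day 0 was −2.20 on day 2, from 54 to 6 expected counts, and 2.72 on day 14, with 400 expected counts. Both changes share the day 0 library, there is 1 library per day, and the difference between them was not tested.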

How the results depend on the processing

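The 264 recomputed changes of single genes included 226 that stayed within their counting interval and 38 that moved beyond it. No change whose interval left out 0 turned its sign, while Aspn on days 10 and 14, whose intervals held 0, turned from below to above day 0 in TPM and with total counts. Of the 38, 21 came with TPM, 12 with total counts, 4 with changes relative to genes of like length and 1 with DESeq2 size factors. The log2 change of the family's sum on days 2, 5, 10 and 14 was the least stable result. It was −0.10, 0.06, −0.19 and −0.14 with total counts, −0.14, 0.30, 0.37 and 0.25 in TPM, and 0.93, 1.98, 2.44 and 2.90 without Bgn. It was −0.72 on day 10 with DESeq2 size factors, and 0.04 on day 2 and −0.54 on day 10 relative to genes of like length. The number of genes over 2-fold below day 0 on days 10 and 14 went from 3 to 0 in TPM and to 0 with a 4-fold threshold. With total counts it was 2 on both days, since Bgn on day 10 (−0.95) and Fmod on day 14 (−0.66) were no longer past 2-fold, and with a pseudocount of 5 it was 2 on day 14 (Fmod −0.99). Aspn on day 5 lost the call in TPM, which left 2 below, and Prelp on day 5 passed 2-fold with total counts (1.13) and in TPM (1.59). Total counts differ from the main scale only by the TMM factors, which shift all genes of a library alike. Relative to the median of all kept genes, the Bgn change on day 10 was −1.56 in normalized counts, −1.54 with total counts and −1.48 in TPM. The cause of the other changes with the scale was not tested, while Bgn alone sets those of the sum without it. TMM without the day 2 library changed no call. No paired analysis was possible because each time point had 1 library, and leaving out a replicate was not possible for the same reason. Differences between cultures and library preparations are not covered by any interval here, and Kera, Omd and Prelp on day 2 rest on few counts.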
